A study of Mus musculus with 11 samples.

Results

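The transcripts described here are 9 genes that mark blood monocytes, read in 11 RNA-seq libraries of cells sorted from mouse brain as microglia. Ly6c2, Ccr2, Plac8, Vcan, S100a4, S100a6, Emb, Adgre5 and Napsa were taken by name from the 55401 rows of a gene count table, with 1 row for each name. All 9 passed the filter on low counts, which kept 20390 genes. S100a8, one of the most abundant transcripts of neutrophils, was set beside them in every library.

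All mice had the NLGF knock-in of App, which produces amyloid plaques, on the C57BL/6 strain at 9 to 10 months of age, so no library comes from a brain without amyloid. The groups were Tyrobp-/-;NLGF with 2 libraries, Tyrobp-/-;Inpp5d+/-;NLGF (the compound mutant) with 3, Inpp5d+/-;NLGF with 3 and NLGF alone with 3. Tyrobp encodes DAP12, a signalling adaptor of TREM2 and of many other myeloid receptors, and Inpp5d encodes the phosphatase SHIP1. The sort kept live cells positive for CD11b and CD45, surface proteins that monocytes and neutrophils carry as well as microglia, and the labels give no level of CD45 that would part them.

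Classical monocytes leave the bone marrow for the blood through the chemokine receptor CCR2 and carry Ly6C on their surface. They can enter inflamed tissue and turn into macrophages there, while microglia arise in the embryo and renew within the brain without them. Resting microglia carry little of the transcripts studied here, which is why these are used as signs of blood-derived cells in a microglial sort.

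In the 5 libraries without Tyrobp, most of the monocyte transcripts were higher. Averaged over both Inpp5d genotypes, 7 of the 9 rose and none fell by edgeR's quasi-likelihood test, where 2.08% of all genes tested rose (4.75% changed in either direction). The members were chosen with earlier results of these data known, so these shares describe them and are no independent test. The median log2 fold change of the 9 was 3.01, against 0.02 over all genes tested. The largest average changes were those of Napsa (26.8-fold), S100a6 (25.1-fold), Plac8 (22-fold) and Ly6c2 (21.8-fold). Ccr2 and Vcan did not pass. S100a8 and other neutrophil transcripts were higher in the same libraries, and within each of the 2 genotypes without Tyrobp 8 of the 9 members stood in the order of S100a8.

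Levels are given as CPM, read counts scaled to a common library size, with sizes corrected by the trimmed mean of M values (TMM). Library totals ran from 29490567 to 66637052 counts, and 3 counts in a library, taken as the floor, corresponded to 0.0477 to 0.1 CPM. Tyrobp was at 7.98 ± 1.36 CPM in the 2 libraries of Tyrobp-/-;NLGF (SD, n = 2), 5.16 ± 2.81 in the compound mutant, 2150 ± 179 in Inpp5d+/-;NLGF and 2190 ± 318 in NLGF (n = 3 each). Inpp5d averaged 448 ± 1.26, 236 ± 40.3, 230 ± 45.5 and 318 ± 116 CPM in the same 4 groups. The summed level of 8 microglial markers was 38100 to 43900 CPM in the 5 libraries without Tyrobp and 34900 to 46200 CPM in the 6 others, and each of these sums was above the summed level of the 9 monocyte members. Title numbers of the libraries without Tyrobp lie in another range than those of the others, so an effect of litter or handling and one of Tyrobp cannot be told apart. In bulk RNA, fewer cells of a type and less RNA per cell cannot be told apart either.

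**Figure D1:**
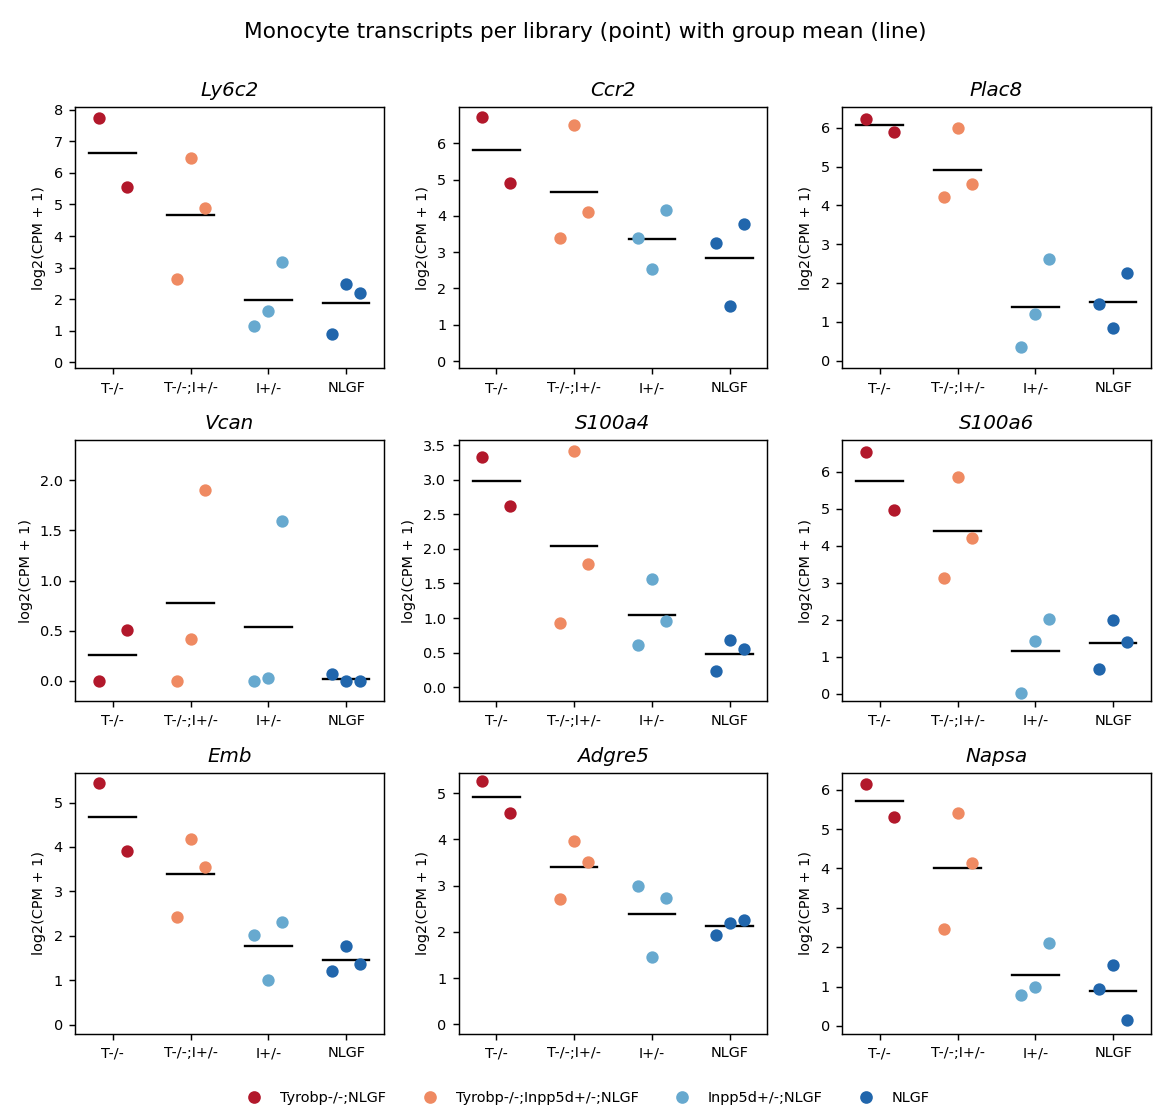
Level of each monocyte transcript in each library, as log2(CPM + 1) on the vertical axis. Points are libraries of Tyrobp-/-;NLGF (T-/-), the compound mutant (T-/-;I+/-), Inpp5d+/-;NLGF (I+/-) and NLGF, and short lines are group means of the plotted log2 values. Plac8, S100a6, Emb and Napsa were higher in all 5 libraries without Tyrobp than in all 6 others, and Vcan was near 0 in most libraries.

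Upstream sequence is shown for 3 members that rose and that hold a motif of a myeloid transcription factor, because these factors switch on genes of the monocyte line. The RefSeq promoter table (GRCm38.p6) matched 7 of the 9 members by symbol. The 250 bases before each annotated start were searched on both strands for GAGGAA, the core of sites for PU.1, for TGTGGT, a core of sites for RUNX factors, and for TTGCNNAA, a form of the C/EBP site. Bases within annotated exons are left out of what is printed. Capitals mark matches to GAGGAA and TGTGGT, or to the reverse complement of either. The stretch of Ly6c2 lies at chr15:75111972-75112221 (minus strand), Plac8 at chr5:100572246-100572455 (minus strand) and S100a6 at chr3:90612644-90612881 (plus strand), each written 5′ to 3′ along the gene.
Ly6c2: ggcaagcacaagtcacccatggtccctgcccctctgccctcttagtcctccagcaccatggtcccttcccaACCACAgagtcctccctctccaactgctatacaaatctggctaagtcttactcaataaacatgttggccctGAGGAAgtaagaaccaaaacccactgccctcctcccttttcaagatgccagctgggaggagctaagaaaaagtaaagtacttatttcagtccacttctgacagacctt
Plac8: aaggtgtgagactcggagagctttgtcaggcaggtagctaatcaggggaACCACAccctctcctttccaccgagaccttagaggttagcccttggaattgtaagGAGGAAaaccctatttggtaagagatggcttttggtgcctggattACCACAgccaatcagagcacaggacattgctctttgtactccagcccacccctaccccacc
S100a6: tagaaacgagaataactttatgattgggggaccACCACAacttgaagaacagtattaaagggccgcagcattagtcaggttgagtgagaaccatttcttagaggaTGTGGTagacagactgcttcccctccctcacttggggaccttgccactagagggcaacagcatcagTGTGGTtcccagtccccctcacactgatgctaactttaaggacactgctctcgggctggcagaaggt
In the printed bases Ly6c2 held 1 match to GAGGAA and 1 to TGTGGT, at bases -108 to -103 and -179 to -174 from its start. Plac8 held TGTGGT at -201 to -196 and at -101 to -96, with GAGGAA at -146 to -141 between them. S100a6 held TGTGGT in 3 places, the nearest at -79 to -74. Over all 32851 windows of the table, 23.3% held GAGGAA, 14% held TGTGGT and 9.56% held TTGCNNAA, which among the members was found for Plac8 alone, in its other window. Of the 7 matched members, GAGGAA was found for 2 and TGTGGT for 3. Ccr2, Vcan, S100a4 and Emb, of which S100a4 and Emb also rose, held no match to any of the motifs. All bases of the Emb window and most of those of the Ccr2 window lay within annotated exons. For Emb and Ccr2 the lack of a match therefore describes mainly exon sequence and says little about sequence outside exons. A match of a few letters is a description of the sequence and not a site of binding.

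Ly6c2 encodes the surface protein Ly6C of classical monocytes (ENSMUSG00000022584.14, chromosome 15, 75108158 to 75111970, GRCm38). It was at 213 and 45.5 CPM in Tyrobp-/-;NLGF, at 5.2, 87.6 and 28.5 CPM in the compound mutant, at 1.21, 2.09 and 8.01 CPM in Inpp5d+/-;NLGF and at 0.866, 4.61 and 3.6 CPM in NLGF. Of the 5 libraries without Tyrobp, 4 stood above all 6 others, and compound replicate 1 fell within their range. Its average log2 fold change was 4.45 (SE 0.853, edgeR adjusted p = 0.0183). The near copy Ly6c1 took 0.952% to 3.83% of the counts of both genes in a library, and since reads can be split between them the 2 levels are uncertain. Ly6c1 was at 3.72 and 0.888 CPM in Tyrobp-/-;NLGF and at 0.0321, 0.133 and 0.0477 CPM in NLGF, with an average log2 fold change of 4.29 (SE 0.848, edgeR adjusted p = 0.021). It had only 1, 1 and 5 counts in Inpp5d+/-;NLGF and 2, 4 and 3 counts in NLGF, around the floor. Ly6c1 passed the filter through the libraries without Tyrobp, so its fold change is uncertain and adds no separate support for Ly6c2.

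Ccr2, the receptor that draws monocytes towards CCL2, overlapped most between genotypes of the members with a clear level (chromosome 9, 124101950 to 124113557). It was at 105 and 29.2 CPM in Tyrobp-/-;NLGF, at 9.49, 90.3 and 16.2 CPM in the compound mutant, 9.47, 4.8 and 16.8 CPM in Inpp5d+/-;NLGF and 8.59, 1.84 and 12.7 CPM in NLGF. Both Tyrobp-/-;NLGF libraries and compound replicate 2 exceeded all 6 libraries with Tyrobp, while the other 2 compound libraries lay inside their range. The average log2 fold change was 2.51 (SE 0.71) and did not pass (edgeR adjusted p = 0.08). Under DESeq2 it passed, with an adjusted p of 0.01.

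Plac8 encodes a small cysteine-rich protein that is abundant in monocytes and granulocytes (chromosome 5, 100553725 to 100572245). It was at 74.1 and 58.2 CPM in Tyrobp-/-;NLGF and at 17.5, 62.4 and 22.3 CPM in the compound mutant, against 0.266, 1.29 and 5.13 CPM in Inpp5d+/-;NLGF and 1.73, 0.801 and 3.74 CPM in NLGF. No library without Tyrobp overlapped a library with it. Plac8 also varied least within the 5 libraries, in which the highest was 4.24 times the lowest, against 41.1 times for Ly6c2 and 73.7 times for S100a8. Its average log2 fold change was 4.46 (SE 0.711, edgeR adjusted p = 0.00841), and it remained called when any 1 of the 11 libraries was left out.

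S100a4 and S100a6 encode small calcium-binding proteins of motile cells and lie beside each other on chromosome 3 (90603771 to 90606045 and 90612882 to 90624181). S100a6 was at 91.4 and 30.3 CPM in Tyrobp-/-;NLGF and at 7.78, 56.8 and 17.4 CPM in the compound mutant, against 0.0204, 1.67 and 3.02 CPM in Inpp5d+/-;NLGF and 0.593, 3 and 1.65 CPM in NLGF. The 2 sets of libraries did not overlap, and the average log2 fold change of S100a6 was 4.65 (SE 0.884, edgeR adjusted p = 0.0176). S100a4 was less abundant, at 9.08 and 5.16 CPM in Tyrobp-/-;NLGF, at 0.904, 9.66 and 2.43 CPM in the compound mutant, 0.532, 1.97 and 0.95 CPM in Inpp5d+/-;NLGF and 0.176, 0.601 and 0.461 CPM in NLGF. Compound replicate 1 again fell inside the range of the libraries with Tyrobp. For S100a4 the average log2 fold change was 3.01 (SE 0.651, edgeR adjusted p = 0.0306), a call that was lost in 7 of the 11 fits with 1 library left out. The exons of S100a4 overlap those of Gm42674 on the same strand, whose levels ran close to it (8.6 and 4.92 CPM in Tyrobp-/-;NLGF), so the reads of these genes cannot be told apart.

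Emb encodes embigin, a surface glycoprotein of the immunoglobulin superfamily, and Adgre5 encodes CD97, an adhesion receptor of leukocytes. Emb (chromosome 13, 117208536 to 117274415) was at 42.7 and 14 CPM in Tyrobp-/-;NLGF and at 4.37, 17.1 and 10.8 CPM in the compound mutant, against 3.05, 1 and 3.94 CPM in Inpp5d+/-;NLGF and 1.31, 2.44 and 1.59 CPM in NLGF. Its groups with and without Tyrobp did not overlap, and the average log2 fold change was 3.01 (SE 0.488, edgeR adjusted p = 0.00918). Exons of Emb overlap those of Gm17509 on the opposite strand, which was at 2.95 and 1.18 CPM in Tyrobp-/-;NLGF and at 0.0641, 0.1 and 0.0159 CPM in NLGF. Adgre5 (chromosome 8, 83723251 to 83741326) was at 37.1 and 22.6 CPM in Tyrobp-/-;NLGF, at 5.52, 14.7 and 10.4 CPM in the compound mutant, 6.95, 1.75 and 5.64 CPM in Inpp5d+/-;NLGF and 2.82, 3.57 and 3.79 CPM in NLGF. Compound replicate 1 was below the highest Inpp5d+/-;NLGF library, and the average log2 fold change of Adgre5 was 2.12 (SE 0.378, edgeR adjusted p = 0.0137). Exons of Adgre5 overlap Ddx39, an RNA helicase gene on the opposite strand, and the library kit does not mark strand. Ddx39 itself was at 38.6 to 58.1 CPM in the libraries without Tyrobp and 38.1 to 55.7 CPM in the others (average log2 fold change 0.03, edgeR adjusted p = 0.94).

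Napsa encodes the aspartic protease napsin A and lies on chromosome 7 (44572380 to 44586862), the chromosome of Tyrobp, at a distance of 14.2 Mb. It was at 69.3 and 38.7 CPM in Tyrobp-/-;NLGF and at 4.54, 41.3 and 16.7 CPM in the compound mutant, against 0.736, 1 and 3.34 CPM in Inpp5d+/-;NLGF and 0.898, 1.94 and 0.111 CPM in NLGF. The lowest library without Tyrobp stood above the highest with it. The average log2 fold change was 4.74 (SE 0.785, edgeR adjusted p = 0.00993). An overlapping gene on the opposite strand, Gm15396, moved with it, at 13 and 7.92 CPM in Tyrobp-/-;NLGF and at 0.16, 0.4 and 0.0159 CPM in NLGF, and unstranded reads of the pair cannot be told apart.

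Vcan, which encodes the matrix proteoglycan versican and marks classical monocytes in blood, was scarce (chromosome 13, 89655312 to 89742509). It had 0 and 23 counts in Tyrobp-/-;NLGF, 0, 21 and 136 counts in the compound mutant, 0, 1 and 70 counts in Inpp5d+/-;NLGF and 3, 0 and 0 counts in NLGF. Tyrobp-/-;NLGF replicate 1, the library with most of Ly6c2, Ccr2, Plac8, S100a6, Emb, Adgre5 and Napsa, had no Vcan count, which allows a level of up to the floor of 3 counts. The average test did not pass (edgeR adjusted p = 0.623), and 1 library in each of 2 genotypes held most of the counts.

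Per kilobase of annotated exon, the mean levels of Ly6c2, Plac8 and S100a6 in the 5 libraries without Tyrobp were alike, at 27.8, 29.5 and 29.8 CPM per kilobase. The mean levels per kilobase were 12.8 for Napsa, 9.33 for S100a4, 7.41 for Ccr2, 4.81 for Adgre5, 2.58 for Emb and 0.0483 for Vcan. In the 6 libraries with Tyrobp, 5 of these (Ly6c2, Ccr2, Plac8, S100a4 and S100a6) averaged between 1.21 and 1.36 CPM per kilobase, Adgre5 averaged 1.09, and Napsa, Emb and Vcan were lower. S100a8 averaged 3760 CPM per kilobase in the libraries without Tyrobp and 56.2 in the others, far above every member.

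Plac8, S100a6, Emb and Napsa, 4 of the 9, were higher in every library without Tyrobp than in every library with it, which held for 2.7% of all genes. Plac8, Emb and Napsa kept their calls in all 11 fits with 1 library left out. Without Tyrobp-/-;NLGF replicate 1, the library with most S100a8, the Ly6c2, S100a4, S100a6 and Adgre5 calls were lost. Fewer of all genes were called in that fit as well, which has 1 Tyrobp-/-;NLGF library left. Average log2 fold changes there were 4.37 for Plac8, 2.5 for Emb and 4.49 for Napsa.

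**Figure D2:**
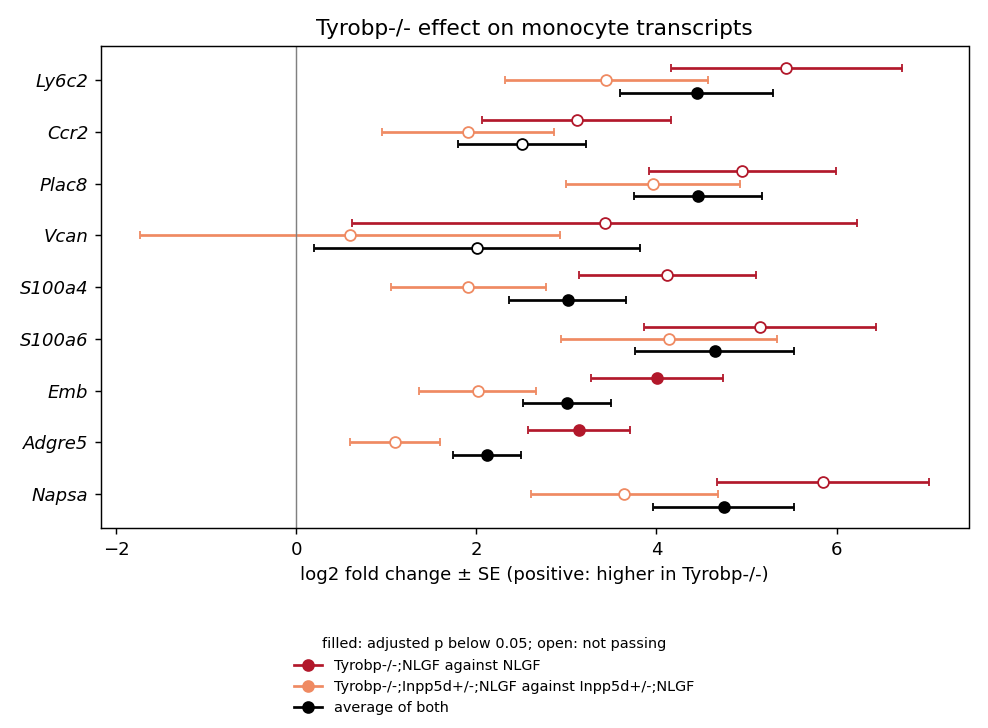
Log2 fold change of each monocyte transcript without Tyrobp against with Tyrobp, with bars of 1 SE, in Tyrobp-/-;NLGF against NLGF, in the compound mutant against Inpp5d+/-;NLGF, and averaged over both. Filled points passed an edgeR adjusted p of 0.05. All 9 average values lie above 0, and 7 are filled. The Vcan values rest on few counts.

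Tested within each Inpp5d genotype, fewer members passed. In Tyrobp-/-;NLGF against NLGF, 2 of 9 were called higher, where 0.255% of all genes were called higher and 0.863% in either direction. The median over the 9 was 4.12. The called members were Adgre5 (log2 fold change 3.14, SE 0.565, edgeR adjusted p = 0.0392) and Emb (4.0, SE 0.731, edgeR adjusted p = 0.0407). Napsa had the largest estimate (5.85, SE 1.18, edgeR adjusted p = 0.0582), and Plac8 (4.95, SE 1.04, edgeR adjusted p = 0.0656) and Ly6c2 (5.44, SE 1.28, edgeR adjusted p = 0.0966) did not pass either. Every Tyrobp-/-;NLGF library was above every NLGF library for 8 of the 9, all but Vcan, where 15.6% of all genes showed this with 2 libraries against 3. The call count was 0 without compound replicate 3 and without any 1 NLGF library, where 0.436% to 0.86% of all genes were called. Without Tyrobp-/-;NLGF replicate 1 or replicate 2, log2 fold changes were 2.99 and 4.59 for Emb and 2.74 and 3.45 for Adgre5. The calls of Emb and Adgre5 did not hold in those fits. They leave 1 library in the group, and fewer of all genes were called in them. Under DESeq2, 7 members were called, and so were 5.08% of all genes.

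In the compound mutant against Inpp5d+/-;NLGF, none of the 9 was called by edgeR, where 0.265% of all genes were called higher and 0.897% in either direction. Unadjusted p was below 0.05 for 5 members and for 2734 of the 20390 genes, and DESeq2 called 5 members and 5.09% of all genes. Plac8 (log2 fold change 3.96, SE 0.969, edgeR adjusted p = 0.111), S100a6 (4.14, SE 1.2, edgeR adjusted p = 0.176), Napsa (3.64, SE 1.04, edgeR adjusted p = 0.167) and Emb (2.02, SE 0.648, edgeR adjusted p = 0.219) were higher in all 3 compound libraries than in all 3 Inpp5d+/-;NLGF libraries, which held for 9.36% of all genes. The median over the 9 was 2.02, against 0.02 over all genes. The spread within the compound mutant was wide, since replicate 1 had a summed level of all 9 members of 55.3 CPM, against 380 and 127 CPM in replicates 2 and 3. In Inpp5d+/-;NLGF the sums were 22.2, 15.6 and 48.8 CPM.

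Against NLGF, the compound mutant had a median log2 fold change of 3.77 over the members. No member was called by edgeR (0.24% of all genes were called higher and 0.873% in either direction), 8 had an unadjusted p below 0.05, as had 2658 of the 20390 genes, and DESeq2 called 7 members and 4.9% of all genes. All but Ccr2 and Vcan were higher in every compound library than in every NLGF library, 7 of 9, where 9.04% of all genes were. These NLGF libraries are the same ones that Tyrobp-/-;NLGF was set against.

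Levels of the monocyte transcripts were low in both Inpp5d+/-;NLGF and NLGF. No member was called, no gene of the 20390 was (0%), and DESeq2 called none of the 9. No member had an unadjusted p below 0.05, while 951 genes had. Log2 fold changes were 0.32 for Ly6c2, 0.41 for Ccr2, 0.03 for Plac8, 1.49 for S100a4, -0.14 for S100a6, 0.59 for Emb, 0.49 for Adgre5 and 0.83 for Napsa, and the libraries of the groups overlapped for every member. Vcan had the largest estimate, 5.07 (SE 2.84), which rests on 0, 1 and 70 counts in Inpp5d+/-;NLGF and 3, 0 and 0 counts in NLGF. Higher values without overlap were found for 3.64% of all genes. Within this background, Inpp5d+/-;NLGF replicate 3 was the highest of the 6 libraries for Ly6c2, Ccr2, Plac8, S100a6, Emb and Napsa.

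The compound mutant was set against Tyrobp-/-;NLGF to ask whether the loss of 1 Inpp5d allele moved the monocyte transcripts in mice without Tyrobp. None of the 9 was called (0.00981% of all genes were, all of them higher), and DESeq2 called none of them. The estimate was negative for 8 of 9, all but Vcan, with a median of -1.15. Adgre5 was the single member with an unadjusted p below 0.05 and without overlap, at 5.52, 14.7 and 10.4 CPM in the compound mutant and 37.1 and 22.6 CPM in Tyrobp-/-;NLGF (log2 fold change -1.55, SE 0.545, edgeR adjusted p = 1). Lower values without overlap were found for 9.66% of all genes. The interaction of the genotypes was negative for all 9 members, with a median of -2.0, and none was called (0% of all genes were). Adgre5 had the smallest unadjusted p for it (-2.04, SE 0.743, edgeR adjusted p = 1), and DESeq2 called no member.

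The levels of the members were next set beside S100a8 in each library. S100a8 was at 6920 and 1600 CPM in Tyrobp-/-;NLGF and at 94, 3650 and 783 CPM in the compound mutant, against 43.7, 10.1 and 61.4 CPM in Inpp5d+/-;NLGF and 0.24, 80.9 and 37.7 CPM in NLGF. The summed level of the members was 642 and 244 CPM in Tyrobp-/-;NLGF and 55.3, 380 and 127 CPM in the compound mutant, against 22.2, 15.6 and 48.8 CPM in Inpp5d+/-;NLGF and 17, 18.8 and 27.6 CPM in NLGF. Within each genotype that lacks Tyrobp, 8 of the 9 members (88.9%), all but Vcan, had the order of S100a8 in both, with Tyrobp-/-;NLGF replicate 1 above replicate 2 and compound replicate 2 above replicate 3 above replicate 1. This order was shared by 9.15% of all genes tested.

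**Figure D3:**
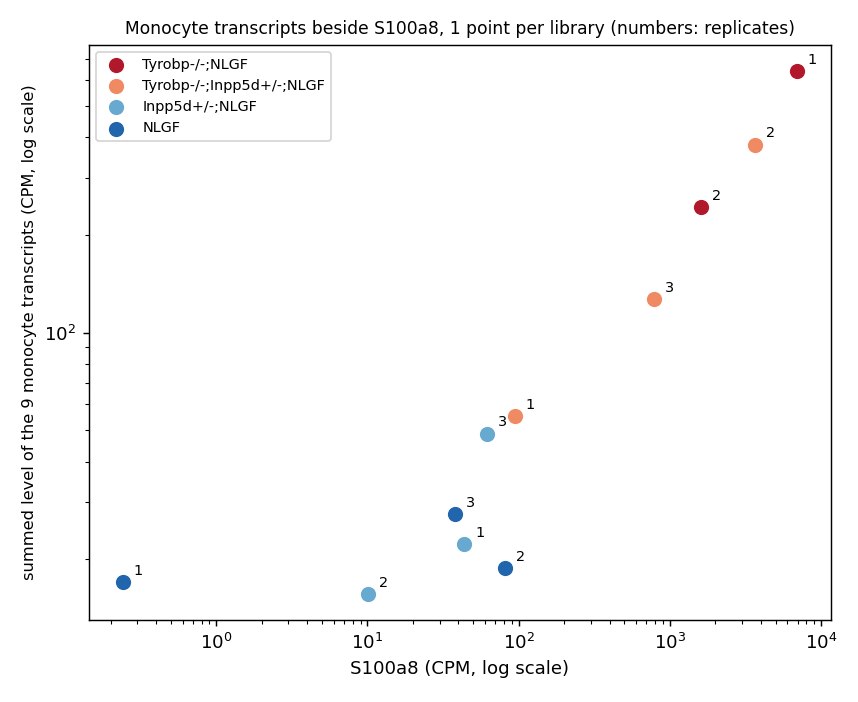
Summed level of the 9 monocyte transcripts against the level of S100a8, 1 point per library, with both axes as CPM on a log scale. The 4 genotypes are coloured points, and numbers beside them are replicates. Libraries without Tyrobp extend to the upper right. Compound replicate 1, at 94 CPM of S100a8 and a summed 55.3 CPM, lies close to the libraries with Tyrobp.

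The ratio of a member to S100a8 was not constant across libraries. Ly6c2 had 30.8 and 28.4 counts per 1000 S100a8 counts in Tyrobp-/-;NLGF and 55.3, 24 and 36.5 in the compound mutant, against 27.6, 208 and 130 in Inpp5d+/-;NLGF and 3600, 57 and 95.5 in NLGF. Ly6c2 and S100a8 thus stayed within a narrow ratio in the libraries without Tyrobp, while NLGF replicate 1 held 54 Ly6c2 counts and 15 S100a8 counts. Plac8 had 10.7 and 36.3 counts per 1000 in Tyrobp-/-;NLGF and 186, 17.1 and 28.5 in the compound mutant, against 6.08, 128 and 83.5 in Inpp5d+/-;NLGF and 7200, 9.91 and 99.3 in NLGF. Its highest ratio among the libraries without Tyrobp was in compound replicate 1, the one with least S100a8. The same library had the highest ratio of those 5 for Ccr2 (101 per 1000, the others 15.2 to 24.8), S100a6 (82.8, the others 13.2 to 22.2), Napsa (48.3, the others 10 to 24.1), Emb (46.5, the others 4.69 to 13.8) and Adgre5 (58.7, the others 4.04 to 14.1). In NLGF replicate 1, which had 0.24 CPM of S100a8, Ccr2 was at 8.59 CPM and Adgre5 at 2.82 CPM, inside the range of the other libraries with Tyrobp.

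With log2 CPM of S100a8 as a covariate in the fit, none of the 7 average calls remained, where 0.343% of all genes were called. Leaving aside Vcan with its few counts, the largest estimates were then those of Plac8 (log2 fold change 3.40, SE 1.19, edgeR adjusted p = 0.326) and Napsa (3.24, SE 1.35, edgeR adjusted p = 0.413), followed by S100a6 at 2.32 (SE 1.25, edgeR adjusted p = 0.559) and Emb at 1.58 (SE 0.695, edgeR adjusted p = 0.447). Ly6c2, at 1.27 (SE 0.989, edgeR adjusted p = 0.727), was far below its value of 4.45 without the covariate, and S100a4 was at 1.11 (SE 1.05, edgeR adjusted p = 0.793). S100a8 itself differed between the Tyrobp genotypes (log2 fold change 6.03, SE 1.3, edgeR adjusted p = 0.0306), so the covariate takes up part of the contrast, and its share of the change cannot be told apart from that of the genotype. Without the 2 libraries with most S100a8, Tyrobp-/-;NLGF replicate 1 and compound replicate 2, none of the members was called either, where 0.972% of all genes were. There Napsa was at 4.0 (SE 0.811, edgeR adjusted p = 0.0746), Plac8 at 3.98 (SE 0.764, edgeR adjusted p = 0.0627), S100a6 at 3.57 (SE 0.931, edgeR adjusted p = 0.148), Ly6c2 at 3.05 (SE 0.762, edgeR adjusted p = 0.133) and Ccr2 at 1.12 (SE 0.584, edgeR adjusted p = 0.509). That fit has 1 Tyrobp-/-;NLGF library, which is assumed to vary like the other groups.

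**Figure D4:**
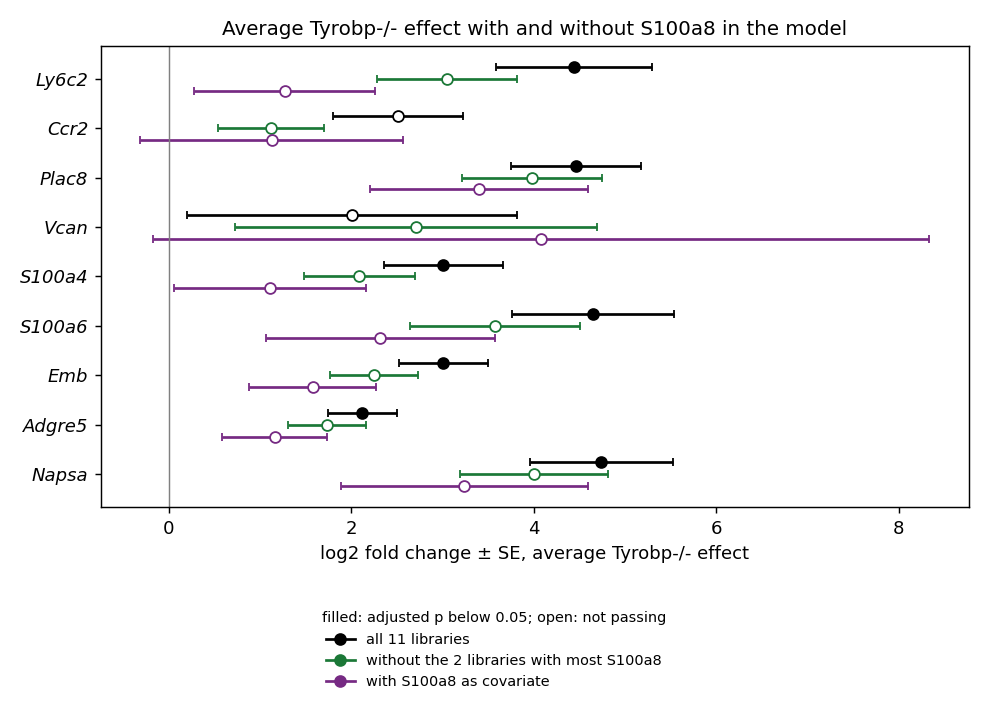
Average log2 fold change of each monocyte transcript without Tyrobp against with Tyrobp, with bars of 1 SE, from all 11 libraries, with S100a8 as a covariate and without the 2 libraries with most S100a8. Filled points passed an edgeR adjusted p of 0.05, and all 7 filled points belong to the fit of all 11 libraries without the covariate.

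The other marker lists show which further transcripts moved in the same libraries. For them, changes without a unit are average log2 fold changes without Tyrobp against with it. In this average fit 2.08% of all genes rose and 4.75% changed in either direction. The lists were chosen with earlier results of these data known, so counts beside these shares are descriptive. Of 12 other genes of classical monocytes, 9 rose and none fell, with a median log2 fold change of 4.74. The log2 fold change was 5.72 for Mgst1, a microsomal glutathione transferase gene (SE 0.862, edgeR adjusted p = 0.00621), and 5.30 for Chil3, a chitinase-like protein gene (SE 0.883, edgeR adjusted p = 0.0102). Others that rose were Ifitm6, Cd177, Gsr, Lyz1, Sirpb1c and Clec4e. F13a1, Fn1 and Ccl9 did not pass. Cd177, Chil3 and Lyz1 are also transcripts of neutrophils or their precursors.

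Of 12 neutrophil genes, 9 rose and none fell, with a median log2 fold change of 6.01 (5.92 with the groups at 0 counts set to the floor). S100a8, S100a9, Ngp, Camp, Ltf, Lcn2, Retnlg, Cxcr2 and Ly6g rose, and Mmp8, Mmp9 and Csf3r did not pass. Lcn2, the gene of lipocalin 2, was at 730 and 179 CPM in Tyrobp-/-;NLGF and at 14.9, 366 and 86.1 CPM in the compound mutant, against 6.83, 2.57 and 6.68 CPM in Inpp5d+/-;NLGF and 0, 6.47 and 0.461 CPM in NLGF. Summed over the list, the neutrophil level was 493 to 19400 CPM in the 5 libraries without Tyrobp. It was 364 to 571 CPM in the 6 others. Csf3r alone was at 236 to 366 CPM without Tyrobp and 246 to 381 CPM in the others, where it made up most of each sum. Those sums therefore say little about the other neutrophil transcripts. In NLGF replicate 1 the sum was 364 CPM, with Csf3r at 363 CPM. The part of the neutrophil transcripts in the monocyte result was not tested beyond the fits above.

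Of 11 genes of patrolling monocytes, the Ly6C-low monocytes of vessel walls, 1 rose and none fell, with a median log2 fold change of 2.34 (1.96 with groups at 0 counts set to the floor). Nr4a1, the transcription factor these cells need, was at 18.2 and 25.1 CPM in Tyrobp-/-;NLGF and at 5.93, 8.33 and 12.7 CPM in the compound mutant, against 5.46, 2.93 and 8.96 CPM in Inpp5d+/-;NLGF and 4.82, 2.74 and 2.04 CPM in NLGF (log2 fold change 1.70, SE 0.351, edgeR adjusted p = 0.0259). Nr4a1 is also an early-response gene in other cells. Pou2f2 (1.33, edgeR adjusted p = 0.0538) and Eno3 (1.40, edgeR adjusted p = 0.0806) did not pass.

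Of 12 genes of monocyte-derived macrophages in brain, 3 rose and none fell, with a median log2 fold change of 0.788. These were Lyz2, the lysozyme of macrophages and granulocytes (2.75, SE 0.48, edgeR adjusted p = 0.0125), Ahnak, a large scaffold protein gene (5.37, SE 1.06, edgeR adjusted p = 0.0208), and the lectin receptor gene Clec12a (3.61, SE 0.761, edgeR adjusted p = 0.0275). Cd44 (log2 fold change 0.47, edgeR adjusted p = 0.586) and Crip1 (-0.09, edgeR adjusted p = 0.94) did not pass.

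**Figure D5:**
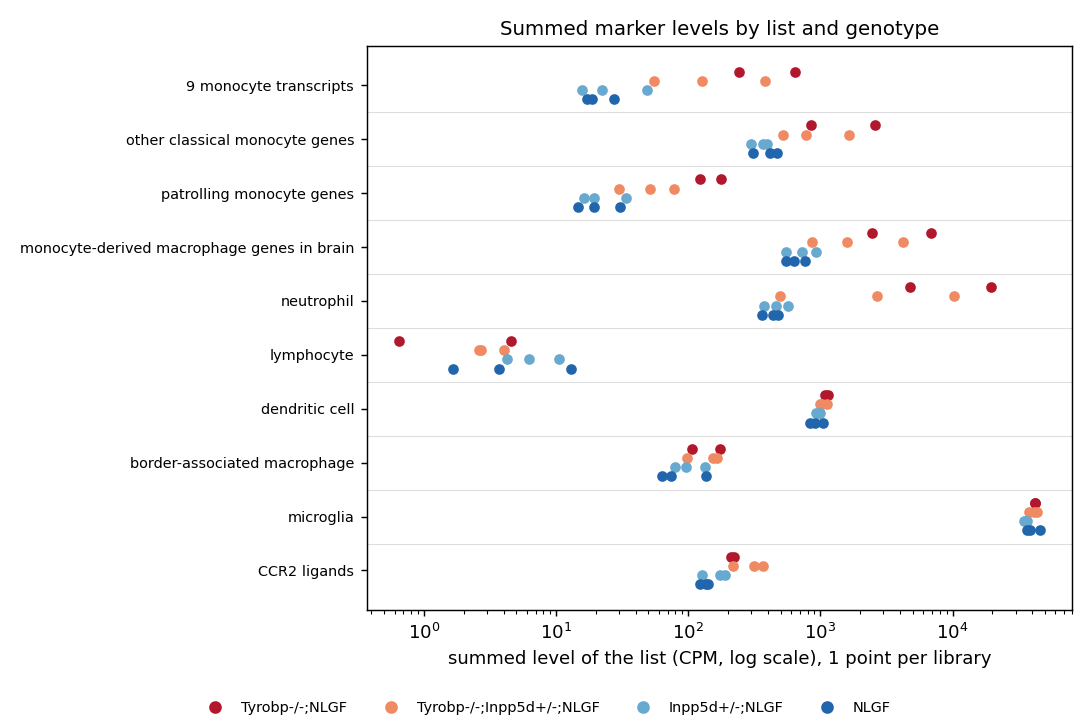
Summed level of each marker list in each library, as CPM on a log axis, with the 4 genotypes as coloured points. The neutrophil list spans 493 to 19400 CPM in the libraries without Tyrobp, and the microglial list spans 34900 to 46200 CPM over all 11. Csf3r made up most of the neutrophil sum in the libraries with Tyrobp. Siglech made up most of the dendritic cell sum in all 11.

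In lists of other cell types that the sort could hold, at most 1 gene per list passed, where 4.75% of all genes changed in either direction. Of 4 tested lymphocyte genes (of 10 in the list), 1 fell, the natural killer receptor gene Klrb1c, at 0 to 0.342 CPM in the 5 libraries without Tyrobp and 0.621 to 11.7 CPM in the 6 others (edgeR adjusted p = 0.0295). Klrb1c was below the floor in the libraries without Tyrobp except compound replicate 3. It passed the filter through the libraries with Tyrobp, so the size of its fall is uncertain. The summed lymphocyte level was 0.647 to 4.52 CPM without Tyrobp and 1.67 to 13 CPM in the others. Nkg7 (2.11, edgeR adjusted p = 0.634) and Cd3d (1.04, edgeR adjusted p = 0.636), genes of cytotoxic lymphocytes and T cells, did not pass. None of 8 dendritic cell genes was called, with Cd209a the closest (2.83, edgeR adjusted p = 0.114) and a list median of 1.03. The summed dendritic cell level was 1000 to 1140 CPM without Tyrobp and 837 to 1050 CPM in the others. Siglech alone, at 979 to 1100 CPM and 829 to 1030 CPM, made up most of that sum, so the sum is no measure of dendritic cell RNA. Of 8 genes of border-associated macrophages 1 fell, Colec12, a scavenger receptor gene (0 to 0.0398 CPM without Tyrobp and 0.522 to 9.99 CPM in the others, edgeR adjusted p = 0.00623), while the list median was 1 (0.942 with groups at 0 counts set to the floor). Colec12 was below the floor in every library without Tyrobp and passed the filter only through the others, so the size of its fall is uncertain. Cd163 (4.24, edgeR adjusted p = 0.276) and Stab1 (0.57, edgeR adjusted p = 0.28) did not pass. Of 8 microglial genes 1 rose, Tmem119 (0.65, edgeR adjusted p = 0.000326), with a list median of 0.0881.

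Of the 4 ligands of CCR2, Ccl12 rose, at 173 and 153 CPM in Tyrobp-/-;NLGF and at 272, 184 and 333 CPM in the compound mutant, against 142, 119 and 160 CPM in Inpp5d+/-;NLGF and 120, 104 and 126 CPM in NLGF (log2 fold change 0.70, SE 0.149, edgeR adjusted p = 0.0296). Its levels overlapped between Tyrobp-/-;NLGF and Inpp5d+/-;NLGF. Ccl2, the main ligand, was at 42.2 and 47.5 CPM in Tyrobp-/-;NLGF, at 32.3, 31.2 and 30.2 CPM in the compound mutant, 28.7, 8.6 and 27.3 CPM in Inpp5d+/-;NLGF and 15.4, 14.6 and 13.9 CPM in NLGF. All 5 libraries without Tyrobp were above the 6 others, although the adjusted p was 0.0503 by edgeR (log2 fold change 1.08, SE 0.266). Ccl2 and Ccl12 did not have the order of S100a8 in both genotypes without Tyrobp. Ccl7 (2.14, edgeR adjusted p = 0.292) did not pass.

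Among 10 tested genes of the S100 family outside the members (of 14), 4 rose and 1 fell, with a median log2 fold change of 2.31 (1.68 with groups at 0 counts set to the floor). S100a10 was at 34.8 and 20.3 CPM in Tyrobp-/-;NLGF and at 18.8, 19.4 and 12.8 CPM in the compound mutant, against 4.35, 2.45 and 1.01 CPM in Inpp5d+/-;NLGF and 4.09, 2.7 and 3.88 CPM in NLGF (log2 fold change 2.82, SE 0.352, edgeR adjusted p = 0.00243). It was called in Tyrobp-/-;NLGF against NLGF and in the compound mutant against Inpp5d+/-;NLGF too. S100a11 (3.49, SE 0.545, edgeR adjusted p = 0.00746), S100a8 and S100a9 also rose, while S100a1 fell (-0.98, SE 0.157, edgeR adjusted p = 0.00889). Of 6 tested Ly6 genes near Ly6c2 (of 8), Ly6c1 and Ly6g rose, Ly6g being the neutrophil surface marker Ly6G (edgeR adjusted p = 0.0441). Ly6c1 was near the floor in the libraries with Tyrobp. Ly6a did not pass (1.36, edgeR adjusted p = 0.0769).

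The genes whose pattern over the 11 libraries was most like the mean of the members' log2 CPM were S100a11 (Pearson r = 0.946), Abi3 (0.943), Retnlg (0.942), Pglyrp1 (0.941) and Tspan18 (0.938), among 9366 genes with a mean of at least 5 CPM. S100a8 had r = 0.85 and ranked 78th. The points share libraries, depth and the split between genotypes, so these values only describe the pattern. Retnlg and Pglyrp1 are transcripts of neutrophils. Abi3 and Tspan18 differ from them in scale, since Abi3 ran from 243 to 295 CPM in the libraries without Tyrobp and 172 to 207 CPM in the others. Tspan18 ran from 13.9 to 27.6 CPM without Tyrobp and 5.72 to 13 CPM in the others.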

How the data were processed

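RNA was measured in 11 libraries. Per the labels' protocols, RNA of flow-sorted brain cells was extracted with an RNeasy Plus Micro kit and libraries were made with SMART-Seq v4, an unstranded kit. The submitters' processing notes name STAR 2.7.3a, featureCounts 1.6.4, GRCm38.p6 and mm10. The authors deposited whole-number read counts per gene, not normalised. No source used here gives the annotation release, the strand setting or how reads with several positions or genes were treated, so overlapping and antisense genes and near copies are uncertain.

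Groups follow the genotype label. Replicate numbers follow sample order and pair nothing. No pair of libraries was identical. The labels do not say which libraries come from separate animals, so p-values measure the spread between libraries. Floors reflect counting error alone, because PCR reads that lack molecular identifiers are not independent.

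Genes were kept with filterByExpr (minimum count 10, minimum total 15), scaled by TMM, and fitted in edgeR 4.0.16 (glmQLFit, glmQLFTest, under R 4.3.3) with 1 coefficient per genotype over all libraries. Adjusted p-values are Benjamini-Hochberg values over 20390 genes within each of the comparisons, with a threshold of 0.05. The average effect is the mean of the Tyrobp contrasts within each Inpp5d genotype. SE was taken from the test statistic. The procedure was tested on simulated data.

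Other settings tried were scaling by RLE or upper quartile, no filter, a filter of at least 1 CPM in 3 libraries, DESeq2 1.42.0, limma-voom (limma 3.58.1), an S100a8 covariate, leaving out the 2 libraries with most S100a8, the compared groups alone, each library left out in turn, and 0.1 as the threshold. Members and lists were chosen with earlier results of these data known. The rule for named genes took the members, S100a8 and Ly6c1, from each list the genes called in any comparison and up to 3 with the smallest p, and the 5 genes most like the members. Genes overlapping members and some further list genes were named after their values were seen. For 1 gene of a list, values are left out here. Motif letters were searched in RefSeq promoter windows of GRCm38.p6.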

Additional observations from a re-analysis of the deposited data

How the results depend on the processing

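The average count of 7 members called was 7 with RLE scaling (4.63% of all genes), upper-quartile scaling (4.86%), no filter (2.6%) and the stricter filter (7.79%). It was 8 with DESeq2, 8 with a threshold of 0.1, and 5 with limma-voom. Of all genes, 10.6% were called with DESeq2, 7.99% at 0.1 and 5.24% with limma-voom, against 4.75% with edgeR at 0.05. It was 0 with the S100a8 covariate and 0 without the 2 libraries richest in S100a8, and between 3 (without Tyrobp-/-;NLGF replicate 1) and 7 with 1 library left out. Beyond that library, the Ly6c2 and S100a6 calls were lost without Inpp5d+/-;NLGF replicate 2, and S100a4 was lost without Tyrobp-/-;NLGF replicate 2, without Inpp5d+/-;NLGF replicate 1 or 3 and without any 1 NLGF library. In the average fits with 1 library outside Tyrobp-/-;NLGF left out, 3.32% to 3.85% of all genes were called. Fewer of all genes were called in the average fits that leave 1 Tyrobp-/-;NLGF library. In Tyrobp-/-;NLGF against NLGF the count of 2 was 5 with a threshold of 0.1, 4 with the stricter filter and 7 with DESeq2. Of all genes, 1.86%, 1.75% and 5.08% were called there. The count was 1 with the compared groups alone and 0 with the covariate, where 0.416% and 0.118% of all genes were called. With 1 library outside Tyrobp-/-;NLGF left out it was 0 to 3, where 0.436% to 1% of all genes were called. DESeq2 called 5 in the compound mutant against Inpp5d+/-;NLGF and 7 against NLGF (5.09% and 4.9% of all genes), where edgeR called 0. The cause of these shifts was not tested.

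Direction changed as follows (log2 fold change, lowest and highest with 1 library left out). For Vcan the range was -3.02 to 6.42 in Tyrobp-/-;NLGF against NLGF, -1.99 to 6.37 in the compound mutant against Inpp5d+/-;NLGF, -1.21 to 4.90 on average, -0.341 to 8.69 in the compound mutant against Tyrobp-/-;NLGF, -0.676 to 8.08 in Inpp5d+/-;NLGF against NLGF and -5.84 to 3.62 for the interaction. In Inpp5d+/-;NLGF against NLGF it was -0.854 to 0.751 for Ly6c2, -0.127 to 0.974 for Ccr2, -1.46 to 0.757 for Plac8, -1.02 to 0.457 for S100a6 and -0.0997 to 1.72 for Napsa. There limma-voom gave -0.883 for Plac8, and the covariate gave -0.31 for Ly6c2, -0.18 for Ccr2 and -0.34 for Plac8. In the compound mutant against Tyrobp-/-;NLGF it was -2.39 to 0.40 for Ccr2. For the interaction, it was -1.77 to 0.508 for Plac8, and S100a6 was at 0.0926 with limma-voom. In these comparisons no value with a changed sign passed the threshold.

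No paired analysis was possible because the replicate numbers were given in sample order and the labels pair no libraries across genotypes.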
